A study of Sus scrofa with 6 samples.

Results

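Fat cells release stored triacylglycerol in steps. PNPLA2 (adipose triglyceride lipase, ATGL), switched on by its activator ABHD5, removes the first fatty acid, LIPE (hormone-sensitive lipase, HSL) cuts the resulting diacylglycerol, and MGLL (monoacylglycerol lipase) frees the last fatty acid and glycerol, which leaves the cell through channels such as AQP7 and AQP3. CES1, a carboxylesterase of the endoplasmic reticulum, also hydrolyses triacylglycerol and retinyl esters, and the RefSeq table lists it with the synonyms TGH and REH.

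These genes were followed in backfat of male pigs, on 6 Affymetrix arrays that each measured 1 pool of RNA from 5 pigs. The 3 boar pools came from intact males and the 3 barrow pools from their full brothers castrated by surgery at 7 days of age. All 30 pigs, 15 pairs of brothers from Pietrain sires and Landrace dams, were weaned at 30 days of age. They had free access to feed until slaughter at 175 days of age, when the middle backfat layer over the 6th rib was taken. The study asked what castration changes in this tissue. Pooling hides the spread between single pigs, so that all errors here are those between pools.

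All probe sets with 1 gene symbol of a list of 7 genes, CES1, LIPE, PNPLA2, ABHD5, MGLL, AQP3 and AQP7, were taken, each separately. This gave 6 of the 6765 genes named on the array, with 8 of its 23999 probe sets, 2 each for PNPLA2 and MGLL, and none for AQP7, which was not analysed here. All 8 were bright enough to be among the 14399 probe sets tested. In RefSeq (Sscrofa11.1) AQP3 and AQP7 are direct neighbours, and CES1 lies beside the carboxylesterase CES5A. A signal is the deposited MAS5 intensity on a linear scale. Differences are barrow minus boar on log2(signal + 16). A probe set passed the test at a limma adjusted p under 0.05, in the fit without a block unless another fit is named. Signals of different probe sets are not compared as levels, since each probe set responds differently.

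CES1 rose in barrow fat while PNPLA2, LIPE and MGLL did not pass the test, and the signals of ABHD5 and AQP3 were lower in every barrow pool than in every boar pool without passing it. Of the 8 probe sets 1 passed upward and 0 downward, where 1.16% of all tested probe sets passed in either direction, 0.701% upward and 0.458% downward. With the replicate number as a block 1 passed upward, CES1, and 2 downward, ABHD5 and AQP3. In that fit 2.35% of all did, 1.49% upward and 0.854% downward. The groups did not overlap in 3 of the 8, against 18.1% of all tested probe sets. The median difference of the 8 was -0.02, and that of all tested probe sets -0.01. In RNA from whole tissue, fewer cells of a type and less RNA per cell cannot be told apart.

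**Figure D1:**
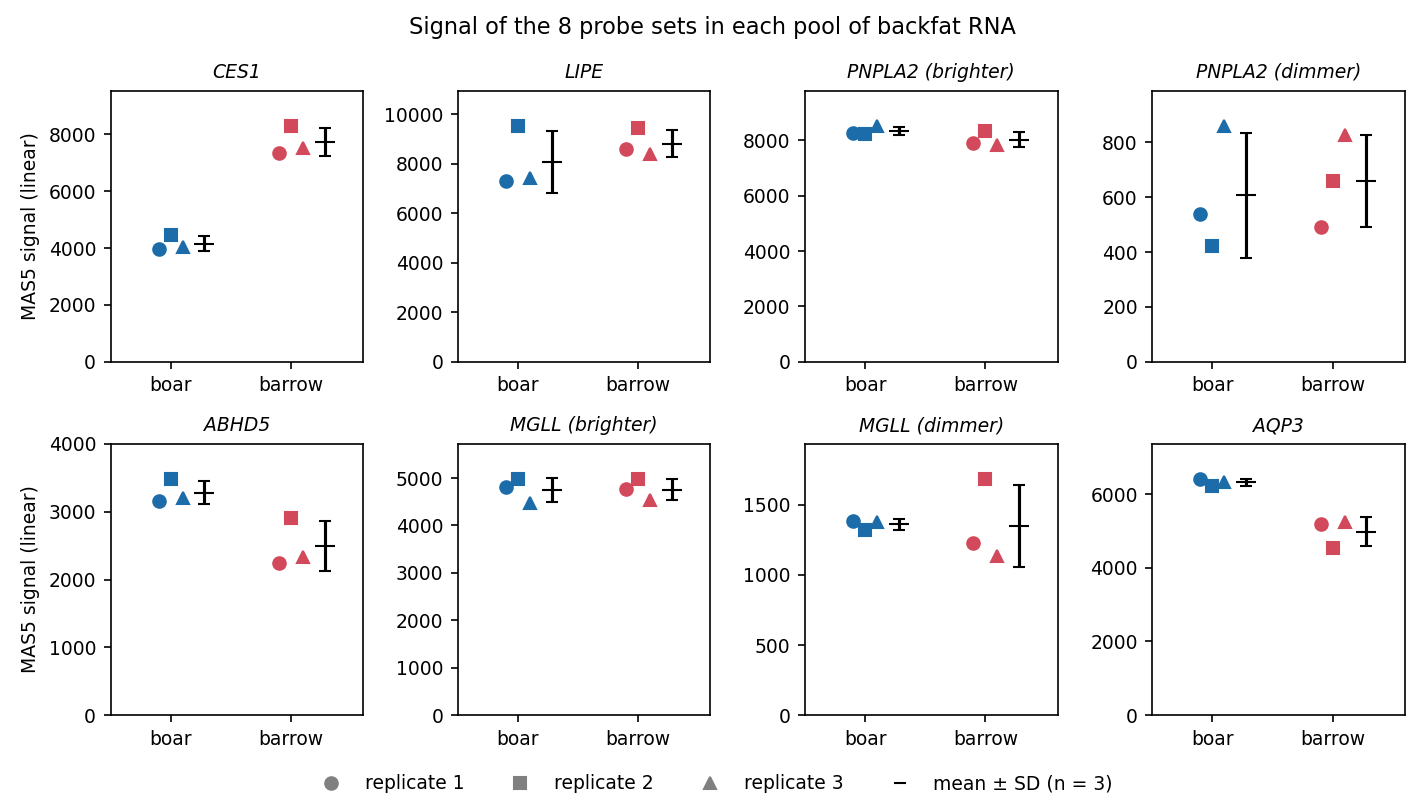
MAS5 signal (linear, y axis from 0) of each of the 8 probe sets in the 3 boar pools (blue) and 3 barrow pools (red), with symbols for the replicate number and bars for the mean ± SD (n = 3). CES1 lies between 3951 and 4469 in boars and between 7348 and 8288 in barrows, ABHD5 and AQP3 lie lower in barrows without overlap, and the groups overlap in the other 5 panels.

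The CES1 signal was 3951, 4469 and 4046 in boar pools 1, 2 and 3, and 7348, 8288 and 7519 in barrow pools 1, 2 and 3. The lowest barrow pool thus lay far above the highest boar pool. The means were 4155 ± 276 in boars and 7718 ± 501 in barrows (n = 3 each, SD), a 1.85-fold rise (95% CI 1.65 to 2.09, limma adjusted p = 5.9e-04). Pool 2 was the highest of its group in both groups, and within each of the 3 pairs of equal number barrow exceeded boar by 0.89 on the log2 scale. By unadjusted p CES1 ranked 6th among the 14399 probe sets tested, and by size of the rise 26th. Of the 101 probe sets called higher 17, CES1 itself included, had a difference of at least its size.

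Carboxylesterases of pigs include closely related copies. A further probe set, annotated to CES1 together with LOC100736962, names no single gene and was left out by the rule. Its signals were 261, 408 and 356 in boars and 433, 701 and 609 in barrows, higher in every barrow pool. The difference was 0.73 (95% CI 0.30 to 1.17, limma adjusted p = 0.12, or 0.012 with the block). Which copy the CES1 probe set itself reads was not tested. CES3, another carboxylesterase, had -0.35 at low mean signals of 127 and 96.0 (limma adjusted p = 0.55).

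CES1 is also known from liver and from monocytes and macrophages. Of 7 hepatocyte marker genes with a probe set 6 lay below the filter, ALB among them (87.7 ± 4.33 in boars and 65.7 ± 45.5 in barrows, n = 3 each, SD), and APOA1 had -0.16 (limma adjusted p = 0.44). The summed hepatocyte marker signal, nearly all of it APOA1, ran from 6095 to 6919 in boars and from 5650 to 6234 in barrows. Of the 7 macrophage markers 6 were below 0 and 0 passed (limma, 3 with an unadjusted p under 0.05), with a summed signal of 8155 to 10503 in boars and 7759 to 9104 in barrows. With the block 1 of them fell, C1QA (-0.44, limma adjusted p = 0.13, and 0.035 with the block). The other macrophage marker, CD163, had 0.15 (limma adjusted p = 0.69). The lowest marker signal was 6.48 in the hepatocyte list and 187 in the macrophage list. The part of these cells in the CES1 difference was not tested.

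The profile of CES1 over the 6 arrays, centred on its own mean, was nearest to that of the fatty acid elongase ELOVL6, at a root mean square distance of 0.05 on the log2 scale among 5356 genes. The median distance over all tested probe sets was 0.48. The nearest ELOVL6 probe set had 3391 ± 206 in boars and 6584 ± 210 in barrows (n = 3 each, SD), a difference of 0.96, and it is not the brightest of the 4 for that gene. The next were NDUFA1, a subunit of respiratory complex I (distance 0.07), ALDH2, the mitochondrial aldehyde dehydrogenase (0.09), the small GTPase DIRAS3 (0.10) and the short-chain dehydrogenase DHRS7 (0.10). The NDUFA1 probe set, too, is not the brighter of the 2 for that gene. All 5 probe sets were higher in barrows, as nearness to CES1 requires, and the distance is a description over 6 arrays.

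Among the lipases of the classical pathway, LIPE had signals of 7315, 9532 and 7409 in boars and 8588, 9453 and 8416 in barrows. The groups overlapped, with boar pool 2 the highest of all 6. The difference was 0.13 (95% CI -0.09 to 0.36, limma adjusted p = 0.65), an interval that runs from 0.940-fold to 1.28-fold. Pairs 1 and 3 had 0.23 and 0.18 and pair 2 had -0.01. The value rested in part on single pools, with 0.26 without boar replicate 2 (limma adjusted p = 0.17), 0.07 and 0.08 without boar replicates 1 and 3, 0.08 without barrow replicate 2 and 0.09 under quantile normalization, and it did not pass in any of the 15 alternatives (adjusted p 0.17 to 0.93).

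PNPLA2, the first lipase of the sequence, had 8264, 8233 and 8513 in boars and 7884, 8321 and 7820 in barrows in its brighter probe set. The pools lay close together and overlapped. The difference was -0.06 (95% CI -0.19 to 0.08, limma adjusted p = 0.77), so that the interval spans 0.874-fold to 1.06-fold. Its dimmer probe set had 540, 420 and 859 in boars and 490, 659 and 828 in barrows. That probe set spread more within each group than between them, with a difference of 0.15 (95% CI -0.39 to 0.68, limma adjusted p = 0.87), and it bounds the gene poorly. Its difference changed sign without boar replicate 2 (-0.08) and without barrow replicate 3 (-0.03). The difference between the 2 probe sets did not itself differ between the groups beyond the spread (-0.20, exact permutation p = 0.6, 2-sided).

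MGLL had 4807, 4972 and 4476 in boars and 4760, 4977 and 4532 in barrows in its brighter probe set. Pool by pool the values of equal number nearly coincided, and both groups were highest in pool 2 and lowest in pool 3. The difference was 0.0019 (95% CI -0.16 to 0.16, limma adjusted p = 0.99). The dimmer probe set had 1387, 1318 and 1381 in boars and 1227, 1684 and 1136 in barrows. Here the barrow pools lay on both sides of the boar pools, with a difference of -0.03 (95% CI -0.33 to 0.26, limma adjusted p = 0.95). The upper ends of the MGLL intervals correspond to 1.12-fold and 1.19-fold. Changes within the intervals are not excluded, and with 3 pools a group larger changes can also fail to pass the test.

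ABHD5, the activator of PNPLA2, had 3161, 3480 and 3205 in boars and 2250, 2912 and 2325 in barrows. Every barrow pool was lower, and barrow pool 2 lay nearest to the boars. The means were 3282 ± 173 and 2496 ± 362 (SD, n = 3 each), a difference of -0.40 (95% CI -0.63 to -0.18), which did not pass over all probe sets (limma adjusted p = 0.10). With the replicate block ABHD5 passed (limma adjusted p = 0.029), as it did with array weights (-0.46, limma adjusted p = 0.016) and without barrow replicate 2 (-0.52, limma adjusted p = 0.0087), and over all alternatives the adjusted p ran from 0.0087 to 0.33. Pairs 1, 2 and 3 had -0.49, -0.26 and -0.46.

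**Figure D2:**
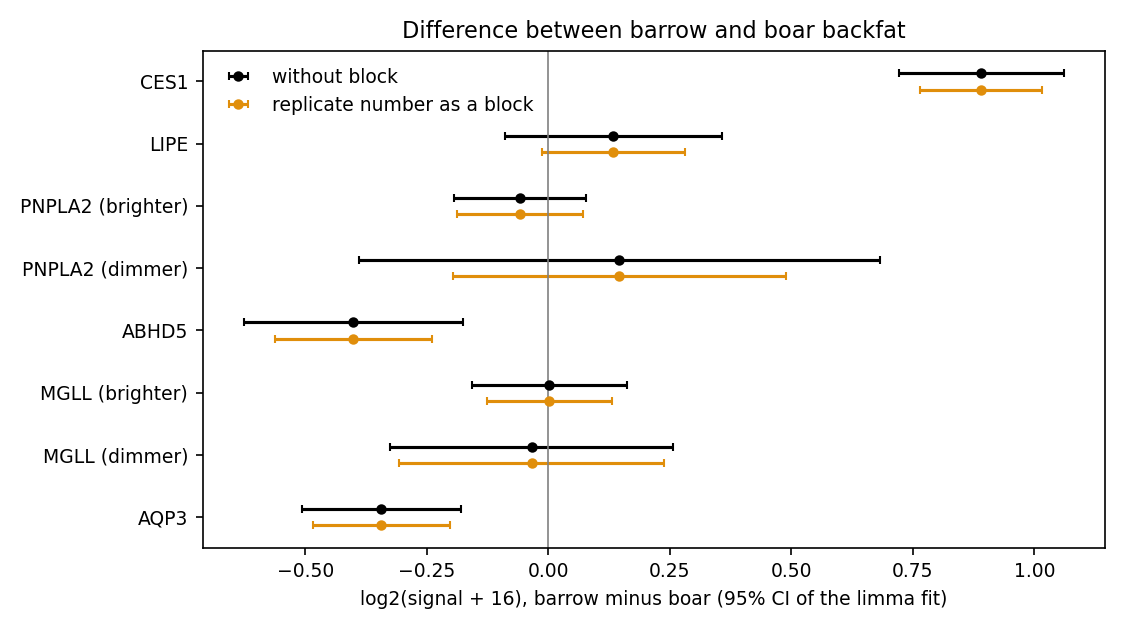
Difference of log2(signal + 16), barrow minus boar, for the 8 probe sets, with the 95% CI of the limma fit without a block (black) and with the replicate number as a block (orange). CES1 stands at 0.89, ABHD5 at -0.40 and AQP3 at -0.34 with intervals that leave out 0, and the intervals of LIPE, PNPLA2 and MGLL include 0.

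AQP3, a channel for water and glycerol, had 6406, 6218 and 6323 in boars and 5186, 4533 and 5231 in barrows. The boar pools agreed closely and all barrow pools lay below them, pool 2 lowest. The means were 6316 ± 94.0 and 4984 ± 391 (SD, n = 3 each), 1.27-fold higher in boars (95% CI 1.13 to 1.42) without passing the test (limma adjusted p = 0.061). It passed with the replicate block (limma adjusted p = 0.031), under quantile normalization (-0.37, limma adjusted p = 0.049) and with array weights (-0.31, limma adjusted p = 0.026), with a range of 0.026 to 0.29 over the alternatives. Pairs 1, 2 and 3 had -0.30, -0.45 and -0.27. The pool order was thus not that of ABHD5, which had its smallest difference in pair 2 where AQP3 had its largest.

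AQP3 is also abundant in epidermis and other epithelia. Of 7 epithelial marker genes with a probe set 6 lay below the filter, and KRT10 had -0.17 (limma adjusted p = 0.64). The summed epithelial marker signal was 545 to 606 in boars and 644 to 712 in barrows. KRT19 had 8.65, 3.58 and 10.4 in boars and 49.6, 59.6 and 77.9 in barrows, and EPCAM moved from 31.5 ± 13.5 to 80.3 ± 11.2 (SD, n = 3 each; exact permutation p = 0.1 for both). Both were below the filter, the lowest epithelial marker signal was 3.58, and the part of epithelial cells in the AQP3 difference was not tested. Red blood cells carry AQP3 too, and their markers HBB and ALAS2 had -0.04 and 0.32 (limma adjusted p = 0.93 and 0.24), with a summed signal of 1221 to 1304 in boars and 1273 to 1511 in barrows.

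The contrast between CES1 and the other genes was measured as a log2 ratio within each array, which shows unequal change but not which level is higher. The brightest probe set of each gene was used, and 6 such ratios were compared in all. With 3 against 3 pools the exact permutation test (2-sided) cannot give a p below 0.1, and each of the 6 gave that value, so that none can pass 0.05. The ratios to CES1 all share its signal, which by itself did not overlap between the groups. They are therefore not independent results, and separation in each adds little to that of CES1.

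The ratio of CES1 to LIPE was -0.89, -1.09 and -0.87 in boars and -0.22, -0.19 and -0.16 in barrows, a difference of 0.76. Relative to PNPLA2 it was -1.06, -0.88 and -1.07 in boars and -0.10, -0.0058 and -0.06 in barrows, a difference of 0.95. The groups did not overlap in either ratio. Relative to MGLL the ratio moved from -0.19 ± 0.08 to 0.70 ± 0.06 (SD, n = 3 each), a difference of 0.89.

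Against ABHD5 and AQP3, which were lower in barrows, the shift of CES1 was larger. The ratio to ABHD5 moved from 0.34 ± 0.02 to 1.63 ± 0.11 (SD, n = 3 each), a difference of 1.29 or 2.45-fold. The ratio to AQP3 moved from -0.60 ± 0.11 to 0.63 ± 0.21 (SD, n = 3 each), a difference of 1.23. The activator was also set against its lipase: the ratio of ABHD5 to PNPLA2 was -1.38, -1.24 and -1.40 in boars and -1.80, -1.51 and -1.74 in barrows, a difference of -0.34. This last ratio was added after the values were seen.

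**Figure D3:**
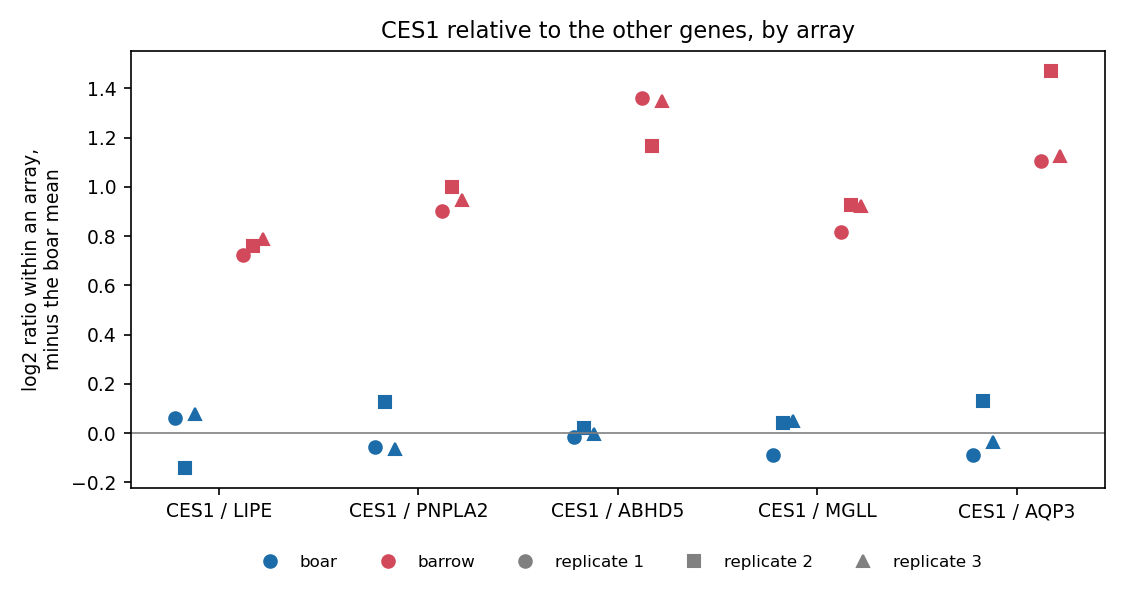
Log2 ratio of CES1 to each of 5 other genes within each array, shifted so that the boar mean is 0 (y axis), for boar pools (blue) and barrow pools (red), with symbols for the replicate number. The boar and barrow pools do not overlap in any of the 5 ratios, and the barrow means stand 0.76 to 1.29 above the boar means. All 5 share CES1, whose own signals do not overlap between the groups, so they are not independent.

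Other genes that govern lipolysis were read from 4 lists of 89 genes, of which 47 had a probe set and 35 were tested, each by its brightest tested probe set. Of the 35, 0 passed in either direction (limma), where 1.51% of the 5356 genes tested did, and 6 had an unadjusted p under 0.05, as did 12.2% of all tested probe sets. With the replicate block 1 passed, the channel AQP11.

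Of 12 listed lipid droplet proteins and inhibitors of lipolysis, 6 had a probe set with 1 gene symbol and 5 were tested. PLIN1, PLIN4, PLIN5, CIDEC and G0S2 had no such probe set and were not read here. The 5 tested genes had a median difference of 0.01 against -0.01 over all genes, and 0 passed (limma, 0 with an unadjusted p under 0.05). The droplet coat protein PLIN2 had 0.08 (95% CI -0.31 to 0.46) and seipin, BSCL2, which helps to form droplets, -0.03 (95% CI -0.39 to 0.32). A dimmer tested BSCL2 probe set had -0.42 (95% CI -1.34 to 0.50). PLIN3 had 0.12 and HILPDA, an inhibitor of PNPLA2, -0.11, each with an interval that includes 0.

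Hormones reach the lipases through receptors and cyclic AMP. Of 10 genes of this group tested 0 passed (limma, 1 with an unadjusted p under 0.05), with a median of 0.07. The adenosine receptor ADORA1, which restrains lipolysis, had 644 ± 86.1 in boars and 806 ± 71.0 in barrows (n = 3 each, SD), a difference of 0.32 (limma adjusted p = 0.30) with no overlap between the groups. The β3-adrenergic receptor ADRB3 had 0.28 (95% CI -0.16 to 0.73) at a low signal, and the inhibitory G protein subunit GNAI2 -0.18 (95% CI -0.40 to 0.05). PRKACA, a catalytic subunit of protein kinase A, had 0.19 (95% CI -0.12 to 0.49), and the β1-adrenergic receptor ADRB1 lay below the filter.

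Of 10 other lipases and esterases tested 0 passed (limma, 1 with an unadjusted p under 0.05), with a median of 0.04. PNPLA3, a close relative of PNPLA2 that acts on lipid droplets, had 386, 378 and 489 in boars and 627, 541 and 630 in barrows. All barrow pools were higher, with a difference of 0.51 (95% CI 0.23 to 0.79, limma adjusted p = 0.10, and 0.051 with the block). The lysosomal lipase LIPA had 0.02 (95% CI -0.16 to 0.19), and 0.22 (95% CI -0.03 to 0.46) in its other probe set. Lipoprotein lipase LPL, which frees fatty acids from blood lipids, had 0.03 (95% CI -0.13 to 0.19), and 0.09 in its other probe set. ABHD10 had 0.24 and ABHD4 0.17, both with intervals that include 0.

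Of 10 genes of glycerol and fatty acid handling tested 0 passed (limma, 4 with an unadjusted p under 0.05), with a median of 0.03. AQP11, an intracellular channel, had 241, 351 and 303 in boars and 420, 606 and 437 in barrows. It was higher in every barrow pool by 0.67 on average (95% CI 0.29 to 1.06, limma adjusted p = 0.11), and rose with the replicate block (limma adjusted p = 0.026). Glycerol kinase GK, which returns glycerol to glycerol 3-phosphate, had 552, 772 and 670 in boars and 797, 852 and 932 in barrows (0.37, limma adjusted p = 0.25), with 0.36 in its other probe set.

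The water channel AQP1 had 0.30 (limma adjusted p = 0.34). PCK1, the key enzyme of glyceroneogenesis, had -0.33 (95% CI -0.63 to -0.04, limma adjusted p = 0.34), from 3733 ± 306 to 3003 ± 659 (SD, n = 3 each), with overlapping groups. GPD1, which makes glycerol 3-phosphate from glucose carbon, had -0.07 (95% CI -0.29 to 0.14).

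**Figure D4:**
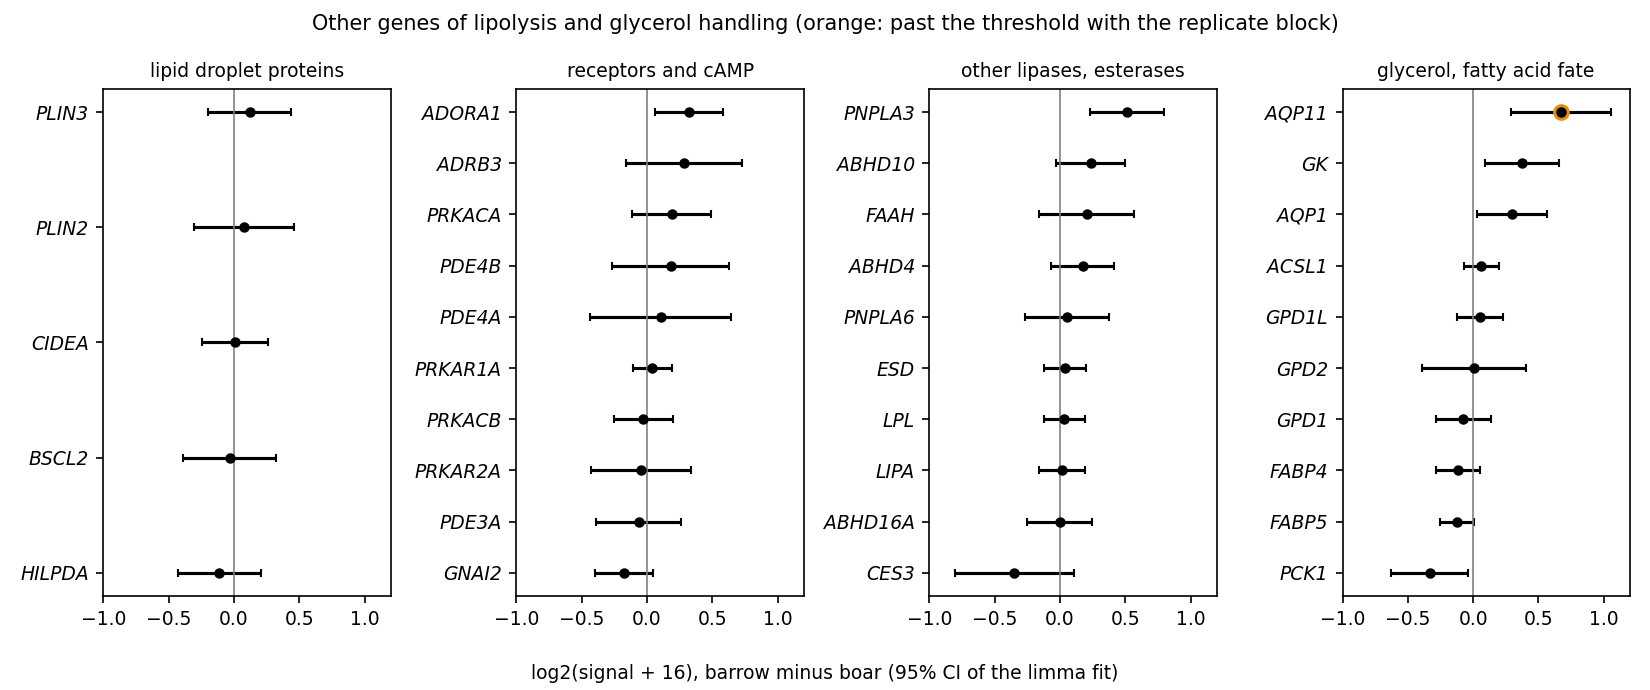
Difference of log2(signal + 16), barrow minus boar, for the 35 tested genes of 4 lists (lipid droplet proteins, receptors and cyclic AMP signalling, other lipases and esterases, glycerol and fatty acid fate), with the 95% CI of the limma fit. PNPLA3 at 0.51 and AQP11 at 0.67 stand highest in their lists, with GK at 0.37 next below AQP11. CES3 at -0.35 and PCK1 at -0.33 stand lowest in theirs, and AQP11, in orange, passed with the replicate block.

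The samples held adipose tissue by their markers. ADIPOQ, which fat cells secrete, had 22244 ± 717 in boars and 21200 ± 2072 in barrows (n = 3 each, SD), and all 6 skeletal muscle markers with a probe set lay below the filter. The summed adipocyte marker signal was 60531 to 63807 in boars and 56938 to 63464 in barrows, and of 5 tested 1 rose, leptin LEP (0.58, limma adjusted p = 0.021). Endothelial markers summed to 14647 to 15447 in boars and 13525 to 13877 in barrows, with 1 of 8 past the test, TEK (-0.47, limma adjusted p = 0.047). The part of these shifts in the differences of ABHD5, AQP3 and CES1 was not tested. The 3'/5' ratios of the actin and GAPDH control probe sets overlapped between the groups (exact permutation p = 0.8 each), and median signals per array ran from 162 to 173.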

How the data were processed

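Each array measured labelled RNA of 1 pool of 5 pigs. Per the submitters' processing notes, the deposited intensity values were made by the authors with MAS5, with version and settings not given in the sources used here. The 2% trimmed mean of each array was close to 500.1, so a common scaling was kept. Values became log2(signal + 16). After removal of 124 control probe sets, the 14399 in the upper 60% by mean (a signal of about 92.7 or more) were fitted with limma 3.58.1 in R 4.3.3 (intensity trend, 2-sided, Benjamini-Hochberg over all). The script was tested on simulated data.

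Members, lists and tests were chosen with earlier results of these data known. Named were all members, per list the members past the threshold or the 4 with the smallest p, 15 further genes wherever tested, and the 5 genes nearest to CES1; cell type markers were named after their values were seen. Of 10099 probe sets with 1 symbol 9989 matched RefSeq by gene identifier.

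Residuals of pools with equal numbers correlated at 0.12, 0.17 and 0.26, all above 0.1, and pairs here are pools of equal number. The main fit left this pairing out, and only the fit with the replicate block took it in. The labels do not state what a number shares. Pseudocount, filter, normalization, trend, weights, block and single arrays were varied.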

Additional observations from a re-analysis of the deposited data

How the results depend on the processing

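CES1 rose under all 15 alternatives, with differences from 0.84 to 0.94 and limma adjusted p up to 0.039, the latter without the intensity trend. The 6 ratios, CES1 to 5 genes and ABHD5 to PNPLA2, kept their direction in all alternatives run, and with the replicate block, as sign flips over pairs, the exact permutation p was 0.25, the smallest possible. Without the block the CES1 ratios stayed at an exact permutation p of 0.1. The added ratio of ABHD5 to PNPLA2 had 0.2 when any boar replicate was left out and when all probe sets of a gene were averaged. The count of probe sets past the threshold, 167, was 96 without a filter, 32 without the trend, 425 with array weights, 338 with the replicate block, and ran from 24 to 291 when leaving out 1 array (24 and 31 without boar replicates 1 and 3, 53, 291 and 66 without barrow replicates 1, 2 and 3). ABHD5 passed with the block (-0.40) and with array weights (-0.46), and ran from -0.52 to -0.33 when leaving out 1 array, where it passed only without barrow replicate 2. AQP3 passed with the block (-0.34), under quantile normalization (-0.37) and with array weights (-0.31). The block changed no other call among the 8 probe sets. Without 1 array, LIPE ran from 0.07 to 0.26, the brighter MGLL probe set ran from -0.0404 to 0.0361, the dimmer one from -0.20 to 0.0774 and the dimmer PNPLA2 probe set from -0.0794 to 0.42. The brighter MGLL probe set, near 0, turned under quantile normalization (-0.0070) and array weights (-0.0082). The cause was not tested. Which probe sets stood above background is unknown, and 3 pools a group limit the precision.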
